A study of Mus musculus with 13 samples.

Results

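The genes described here are 10 core components of the Notch signalling pathway that were taken by symbol from the RNA-seq counts of mouse embryonic stem (ES) cells. They are the receptors Notch1, Notch2, Notch3 and Notch4, the ligands Dll1, Dll3 and Jag1, and the target genes Hes1, Hes5 and Hey1. All 10 were present among the 24421 genes counted and all 10 were among the 20044 genes tested. The cells were F1-2.1 ES cells of the hybrid strain CAST/Ei x 129/Sv/Jae that carried a Tet-on transgene for CTCF S224E, a form of the chromatin protein CTCF in which a phosphorylated serine is replaced by glutamate. All cells came from a single clone (A2), which received doxycycline at 1 μg/mL over 6 days (+dox, 2 libraries) or no doxycycline (−dox, 2 libraries), in each case with LIF and on a layer of γ-irradiated mouse embryonic fibroblasts (MEFs). The methods call the 2 libraries of each condition biological replicates. The −dox cells carried the same transgene, the cells of both conditions kept their own Ctcf gene, and RNA from cells given dox without the S224E transgene was not analysed here, so that the response to dox and the response to CTCF S224E cannot be told apart.

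The 4 libraries held between 22899107 and 30206085 reads on exons. Ctcf itself, whose reads from the transgene and from the cells' own gene were counted together, stood at 327 and 329 CPM (counts scaled to library size) in the +dox libraries and at 295 and 304 CPM in the −dox libraries, a log2 fold change of 0.13 ± 0.085 (SE) that did not pass the test (edgeR adjusted p = 0.475). ES cell identity was checked with 8 markers, which summed to between 4652 and 5921 CPM in the 4 libraries, and Pou5f1, Sox2 and Nanog were at 499 CPM or more in every library. A list of 12 fibroblast markers, which the feeder layer expresses, summed to 657 CPM in +dox replicate 1 and to 258 CPM in +dox replicate 2, and to 184 and 186 CPM in the −dox libraries. The first +dox library therefore held 2.55 times the fibroblast signal of the second, and results that rest on this library are given below with and without it.

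Notch receptors are membrane proteins that are cut when a ligand of the Delta-like or Jagged family on a neighbouring cell binds them. The freed intracellular part enters the nucleus, joins the DNA-binding protein RBPJ and a Mastermind co-activator, and switches on target genes, of which the Hes and Hey repressors are the best known. ES cells express receptors and ligands, and the pathway is known for directing choices of fate, such as neural against non-neural, once the cells leave the pluripotent state.

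Promoter sequence was examined for the genes on which the results turn, since RBPJ and the Hes and Hey proteins act on short DNA words near the genes they control. The 250 bases before the transcription start were taken from RefSeq (GRCm38.p6), where 8 of the 10 members (all but Hes1 and Hey1) matched an entry, and were searched on both strands for the RBPJ word TGGGAA, for its longer form CGTGGGAA, which contains it, for the N box CACNAG and the E box CACGTG that Hes and Hey proteins bind, and for the core consensus of CTCF. The windows of 4 genes are shown, those of Hes5 and Notch3, which are the target and the receptor with the greatest differences between conditions, and those of Maml3 and Nrarp, which passed the test. They run 5′ to 3′ along the gene's strand and end 1 base before the start, and capitals mark each RBPJ word, N box or E box on either strand.
Hes5 (chr4:154960673-154960922, + strand): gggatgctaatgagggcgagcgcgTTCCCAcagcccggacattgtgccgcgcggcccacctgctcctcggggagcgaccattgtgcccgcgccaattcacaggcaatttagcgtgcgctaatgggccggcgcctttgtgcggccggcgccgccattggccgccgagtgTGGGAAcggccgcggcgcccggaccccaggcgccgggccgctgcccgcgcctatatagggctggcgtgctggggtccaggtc
Notch3 (chr17:32166891-32167140, − strand): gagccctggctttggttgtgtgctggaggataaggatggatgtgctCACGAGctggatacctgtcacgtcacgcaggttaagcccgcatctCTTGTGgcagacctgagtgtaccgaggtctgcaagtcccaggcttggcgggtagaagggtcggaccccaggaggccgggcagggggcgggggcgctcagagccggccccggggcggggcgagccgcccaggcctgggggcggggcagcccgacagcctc
Maml3 (chr3:52105007-52105256, − strand): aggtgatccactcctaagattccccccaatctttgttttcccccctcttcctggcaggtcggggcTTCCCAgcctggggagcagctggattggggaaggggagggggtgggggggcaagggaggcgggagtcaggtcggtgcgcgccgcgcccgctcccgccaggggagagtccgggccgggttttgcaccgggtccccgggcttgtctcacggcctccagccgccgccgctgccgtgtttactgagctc
Nrarp (chr2:25180508-25180757, + strand): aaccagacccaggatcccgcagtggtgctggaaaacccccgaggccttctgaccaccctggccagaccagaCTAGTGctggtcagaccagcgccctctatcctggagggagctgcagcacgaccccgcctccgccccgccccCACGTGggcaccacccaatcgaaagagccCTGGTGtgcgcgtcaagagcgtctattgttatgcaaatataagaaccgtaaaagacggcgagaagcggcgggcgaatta

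The Hes5 window held 2 RBPJ words, which began 226 and 82 bases before the start on opposite strands, and it was the one window of the 8 matched members with any. The Maml3 window held 1, which began 185 bases before the start. The Notch3 window held 2 N boxes, 204 and 159 bases before the start, and the Nrarp window held 2 N boxes and 1 E box. The windows of Notch1 and Notch2 held 1 N box each, and none of these words was found in those of Notch4, Dll1, Dll3 and Jag1. Of all 32851 promoters in the same table, 21.6% held the RBPJ word, 36.7% an N box and 6.02% an E box. The longer RBPJ word CGTGGGAA (0.636% of promoters) and the CTCF core (0.508%) were in none of the members' windows. Each RBPJ word of the Hes5 window lies within TGTGGGAA on its own strand. This form differs from the longer word in its first base only, and it was not searched for or counted over all promoters. A match is a description of the sequence and no binding was measured in it.

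With dox the 10 members were mostly at or below their −dox level, by amounts that for single genes seldom reached the threshold. The fitted log2 fold change was below 0 for 9 of the 10, with a median of −0.29, against a median of 0.0072 over all genes tested, of which 9866 were below 0 and 10178 above. Of the 9, Notch4 (−0.00075), Notch1 (−0.067), Notch2 (−0.098) and Dll1 (−0.18) lay within 1 SE of 0. Notch3, Hes1, Hes5 and Dll3 were lower in both +dox libraries than in either −dox library, and Jag1 was higher in both. Over all genes tested, 23.7% showed such a separation downwards and 23.3% upwards. None of the 10 had an adjusted p under 0.01 in edgeR's quasi-likelihood test, where 0.599% of all genes did (0.519% lower and the rest higher), although 4 members were lower at an unadjusted p under 0.05 and none was higher, where 9.31% of all genes were lower and 8.48% higher. At an adjusted p under 0.05, which 1.93% of all genes passed with a lower level, Notch3 alone passed. DESeq2, which called 1.86% of the genes it tested lower at 0.01, also called Notch3 alone. Without +dox replicate 1, the library with the most fibroblast signal, 3 members passed at 0.01 (Notch3, Hes1 and Hey1), all lower, where 3.56% of all genes passed with a lower level and 1.51% with a higher. Without +dox replicate 2, Notch3 alone passed, where 1.81% of all genes passed with a lower level and 2.62% with a higher. In such a fit the lone library is assumed to vary like the pair of the other condition.

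**Figure D1:**
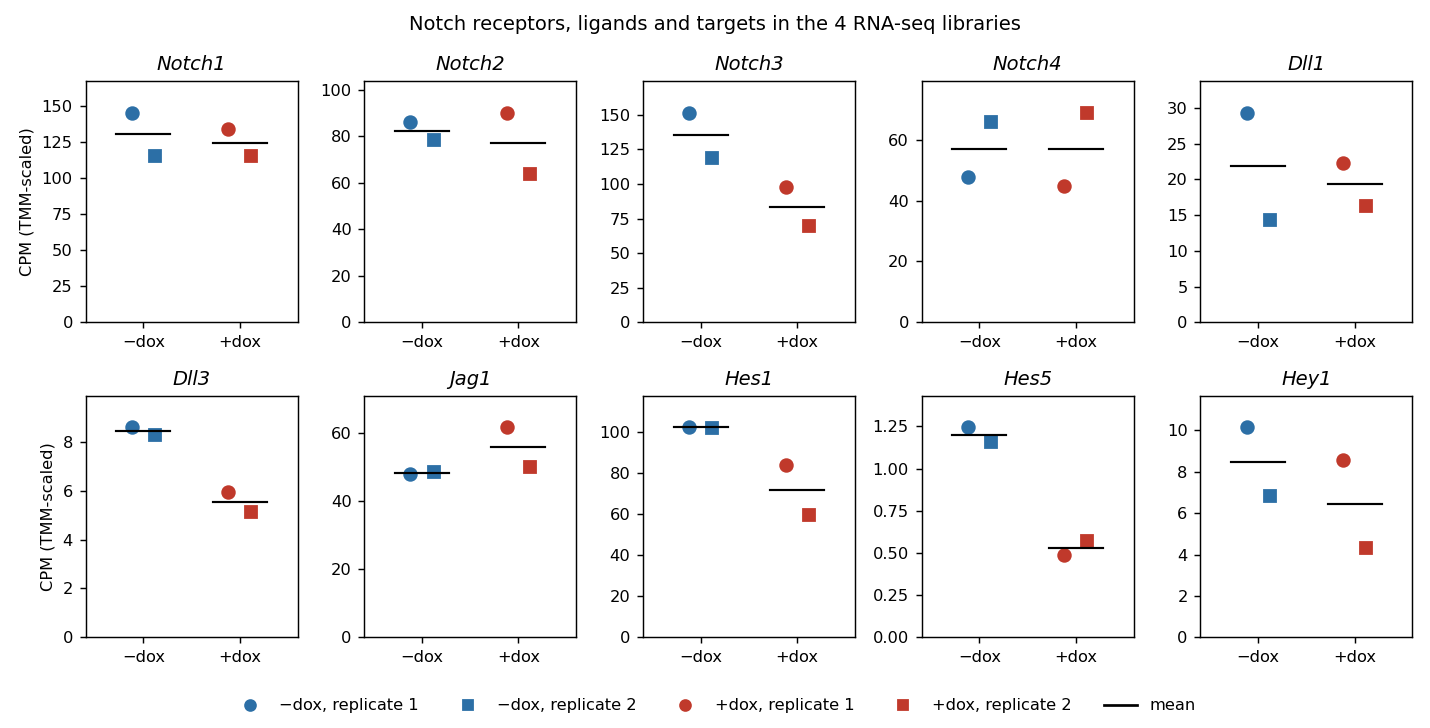
Level of each of the 10 members in the 4 libraries, in CPM scaled by TMM on axes that start at 0, with −dox in blue, +dox in red, circles for replicate 1, squares for replicate 2 and a line at the mean of each condition. The +dox points lie below both −dox points for Notch3, Dll3, Hes1 and Hes5, and above them for Jag1.

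Among the receptors, Notch3 was lower with dox while the conditions overlapped for Notch1, Notch2 and Notch4. Notch3, a receptor best known from vascular smooth muscle, is at chr17:32257838-32303797 on the − strand of mm9 and was counted over the exons of NM_008716. It stood at 97.7 and 69.5 CPM in the +dox libraries and at 152 and 118 CPM in the −dox libraries. Every +dox value was thus below every −dox value, and the mean was 38.1% lower. The log2 fold change was −0.69 ± 0.16 (SE), with a 95% interval from −1.03 to −0.36 and an edgeR adjusted p of 0.0355. DESeq2 gave an adjusted p of 0.00459, and without +dox replicate 1 edgeR gave −0.96 with an adjusted p of 1.06e-09. Without +dox replicate 2 it gave −0.47 (edgeR adjusted p = 0.00972), and without −dox replicate 1 or 2 it gave −0.50 and −0.86 (edgeR adjusted p = 0.568 and 0.67). The replicates of each condition differed from one another by less than the conditions did. Of the annotated exonic bases of Notch3, 488 also belong to an antisense transcript, and whether the counting used strand is not stated, so a part of these reads could belong to either.

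Notch1, the receptor with the widest role in early embryos and in blood, is at chr2:26313422-26359342 on the − strand (NM_008714). Its level was 134 and 116 CPM with dox and 146 and 116 CPM without. The conditions overlapped, replicate 2 gave nearly the same value in both, and the log2 fold change was −0.067 ± 0.12 with an interval from −0.33 to 0.20 (edgeR adjusted p = 0.814). Antisense transcripts share 1482 of its exonic bases. Notch2, at chr3:97817461-97954290 on the + strand (NM_010928), shares much of its structure with Notch1. It stood at 90.3 and 63.8 CPM with dox and at 86.4 and 78.6 CPM without. A +dox library was above both −dox libraries and the other below both, which left a log2 fold change of −0.098 ± 0.15 with an interval from −0.41 to 0.22 (edgeR adjusted p = 0.752).

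Notch4, a receptor described mainly in endothelial cells, is at chr17:34701240-34725488 on the + strand (NM_010929). Its levels were 44.6 and 68.9 CPM with dox and 47.9 and 65.8 CPM without, means of 56.8 ± 17.1 and 56.9 ± 12.7 CPM (SD, n = 2). The spread within each condition was therefore many times the difference between them, and the 95% interval of the log2 fold change ran from −0.42 to 0.41. Notch4 differed from the other receptors in its replicates too, since it was the one receptor with the lower value in replicate 1 of both conditions. A list of 8 endothelial markers, most of whose signal was Pecam1, summed to 111 and 115 CPM with dox and to 109 and 127 CPM without, also lower in replicate 1 of both conditions. Within the list only Pecam1 (88.9 and 95.1 CPM with dox, 76.5 and 91.0 CPM without) and Esam had this order, and the other genes did not. Of the genes in the list Flt1 fell with dox, from 15.6 and 19.8 CPM to 5.42 and 3.15 CPM (edgeR adjusted p = 0.00179), and Cdh5, which defines endothelial cells, was at or below 0.267 CPM in every library. Whether any endothelial cells were present and contributed to the Notch4 level was not tested.

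The difference in Notch3 was also seen in the make-up of the receptors. Per kilobase of exon, so that genes of different length can be compared, the 4 receptors summed to 42.0 and 37.6 CPM per kb with dox and to 50.1 and 44.7 CPM per kb without. Notch3 made up 29.4% and 23.4% of this sum with dox and 38.3% and 33.5% without. Its share was the largest of the 4 receptors in both −dox libraries and was below that of Notch1 in both +dox libraries, where Notch1 made up 33.8% and 32.5%. The share of Notch4 ranged from 14.5% to 27.9% and was higher in replicate 2 than in replicate 1 of both conditions.

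**Figure D2:**
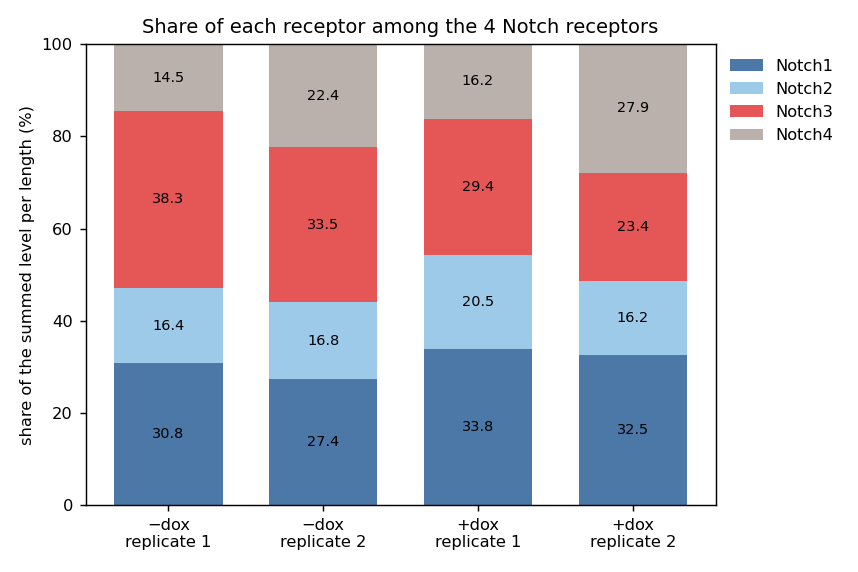
Share of each Notch receptor in the summed level of the 4 receptors (CPM per kb of exon), in percent, with 1 stacked bar for each library. The Notch3 segment is 38.3% and 33.5% of the −dox bars and 29.4% and 23.4% of the +dox bars.

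The ligands differed in direction. Dll3 was lower with dox, Jag1 was slightly higher, and Dll1 varied more between replicates than between conditions. Dll3, a divergent Delta-like protein that is known to hold Notch signalling back within its own cell and to be needed for somite formation, is at chr7:29078574-29086804 on the − strand (NM_007866). It was at 5.95 and 5.12 CPM with dox and at 8.61 and 8.29 CPM without, from 117 to 263 reads a library. The conditions did not overlap, and the replicates lay close together in each. The mean was 34.5% lower and the log2 fold change −0.61 ± 0.22 with an interval from −1.08 to −0.14 (edgeR adjusted p = 0.149), which did not pass in any of the 14 other settings tried.

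Dll1, an activating ligand of the presomitic mesoderm and the neural tube, is at chr17:15504318-15512787 on the − strand (NM_007865). It was at 22.3 and 16.2 CPM with dox and at 29.3 and 14.3 CPM without. The −dox replicates differed by more than any +dox library differed from them, and the log2 fold change of −0.18 ± 0.27 had an interval from −0.78 to 0.41 (edgeR adjusted p = 0.759). An antisense transcript shares 725 of its exonic bases. Jag1, a Jagged ligand, is at chr2:136907187-136942256 on the − strand (NM_013822). It was at 61.7 and 50.1 CPM with dox and at 48.1 and 48.7 CPM without. Both +dox values were above both −dox values, the second by little, and the log2 fold change was 0.21 ± 0.13 with an interval from −0.072 to 0.49 (edgeR adjusted p = 0.448). The +dox library with the higher Jag1 value was the one with the higher fibroblast signal, and without it the log2 fold change was 0.047. The part of that signal in the Jag1 value was not tested.

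The other ligands of the family, Dll4 and Jag2, were read for comparison. Jag2 was at 120 and 116 CPM with dox and at 121 and 116 CPM without, a log2 fold change of −0.012 ± 0.096 (edgeR adjusted p = 0.965). It was the most abundant ligand per length, at between 58.3% and 63.6% of the 5 ligands' sum in every library. Dll4 was at 1.73 and 0.482 CPM with dox and at 0.589 and 0.717 CPM without, from 11 to 39 reads a library, and did not pass (edgeR adjusted p = 0.53). Dll3 made up 5.44% and 5.28% of the ligands' sum with dox and 7.74% and 8.38% without, and the sum itself ran from 45.1 to 51.7 CPM per kb over the 4 libraries.

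The 3 targets were each lower on average with dox. Hes1, a Notch target that represses proneural and other differentiation genes, is at chr16:30065443-30067882 on the + strand (NM_008235). It was at 83.9 and 59.3 CPM with dox and at 102 CPM in each −dox library. Both +dox values were below the −dox values, which themselves were nearly equal, and most of the spread was between the +dox replicates. The mean was 29.8% lower, and the log2 fold change was −0.51 ± 0.14 with an interval from −0.82 to −0.20 (edgeR adjusted p = 0.0764, DESeq2 adjusted p = 0.0418). Without +dox replicate 1 the log2 fold change was −0.78 with an edgeR adjusted p of 4.33e-06, and without +dox replicate 2 it was −0.28 with an edgeR adjusted p of 0.253. Without −dox replicate 1 or 2 it was −0.51 in each case, with edgeR adjusted p of 0.569 and 0.67.

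Hes5, a Notch target of neural progenitors, is at chr4:154335032-154336480 on the + strand (NM_010419) and was rarely read in these cells. Only 11 and 13 reads were counted with dox, and 38 and 29 without, or 0.489 and 0.569 CPM against 1.24 and 1.16 CPM. The conditions did not overlap, and Hes5 had the largest fold change of the 10 members, at 55.7% below the −dox mean. With so few reads the log2 fold change of −1.17 ± 0.42 had an interval from −2.10 to −0.25 (edgeR adjusted p = 0.16), and DESeq2 gave no adjusted p. An antisense transcript shares 433 of its exonic bases. Hes5 is the member whose window above holds the RBPJ words.

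Hey1, a target known from heart and vessels, is at chr3:8663359-8667038 on the − strand (NM_010423). It was at 8.57 and 4.29 CPM with dox and at 10.1 and 6.81 CPM without. The conditions overlapped, replicate 1 was higher than replicate 2 in both, and the log2 fold change of −0.40 ± 0.31 had an interval from −1.07 to 0.26 (edgeR adjusted p = 0.555). Without +dox replicate 1 it was −0.99 with an adjusted p of 0.00647, and without +dox replicate 2 it was 0.0099, so that the call rests on which +dox library is kept.

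**Figure D3:**
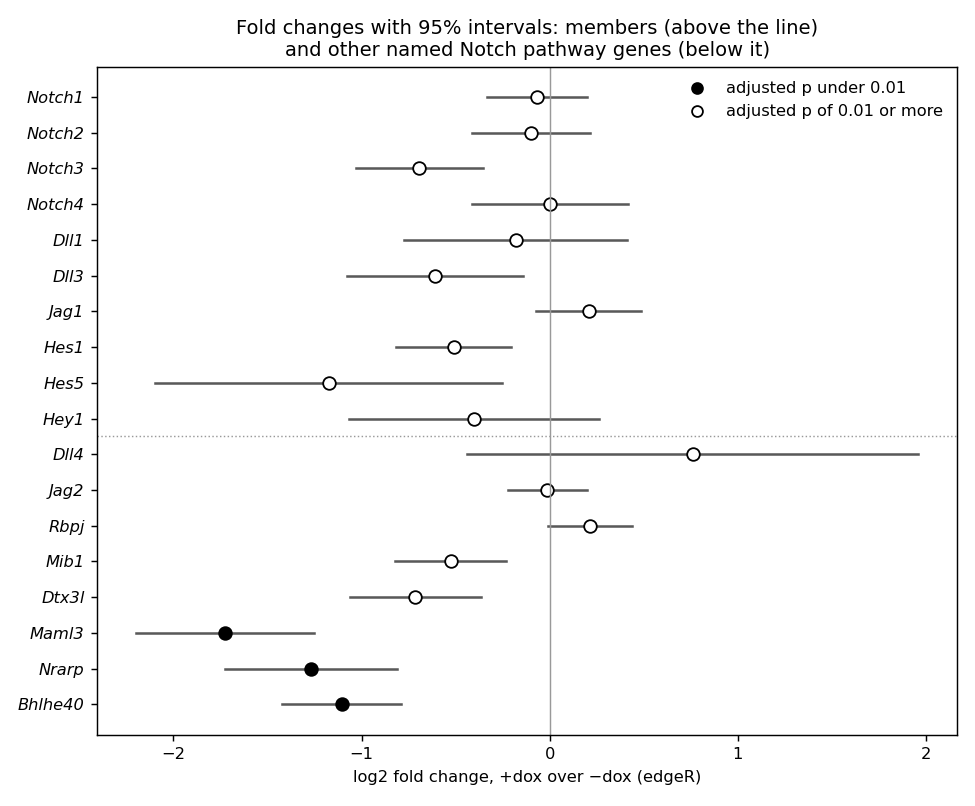
Log2 fold change (+dox over −dox) of the 10 members, above the dotted line, and of 8 other Notch pathway genes, below it, with 95% intervals from edgeR. Filled circles have an adjusted p under 0.01, which holds for Maml3, Nrarp and Bhlhe40 and for none of the members, and the intervals of Notch3, Dll3, Hes1 and Hes5 lie below 0.

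Levels per exon length spread over a wide range. Hes1 had the highest level in both conditions, at 49.5 ± 12.02 CPM per kb with dox and 70.6 ± 0.052 without (SD, n = 2), and Hes5 the lowest, at 0.417 ± 0.045 and 0.946 ± 0.049. The ratio of the highest to the lowest was 119 with dox and 74.6 without. Without dox the order after Hes1 was Notch3 (17.1 ± 2.97), Notch1 (13.8 ± 2.25), Jag1 (8.86 ± 0.0835), Notch4 (8.65 ± 1.93), Notch2 (7.88 ± 0.528), Dll1 (6.38 ± 3.12), Dll3 (3.93 ± 0.106) and Hey1 (3.86 ± 1.07). The ranges of neighbours overlapped except between Hes1 and Notch3, Notch1 and Jag1, Dll1 and Dll3, and Hey1 and Hes5. With dox the order was Hes1, Notch1 (13.2 ± 1.39), Notch3 (10.6 ± 2.53), Jag1 (10.2 ± 1.51), Notch4 (8.64 ± 2.61), Notch2 (7.36 ± 1.78), Dll1 (5.64 ± 1.27), Hey1 (2.93 ± 1.38), Dll3 (2.57 ± 0.272) and Hes5. Here the ranges overlapped from Notch1 down to Dll1 and between Hey1 and Dll3.

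**Figure D4:**
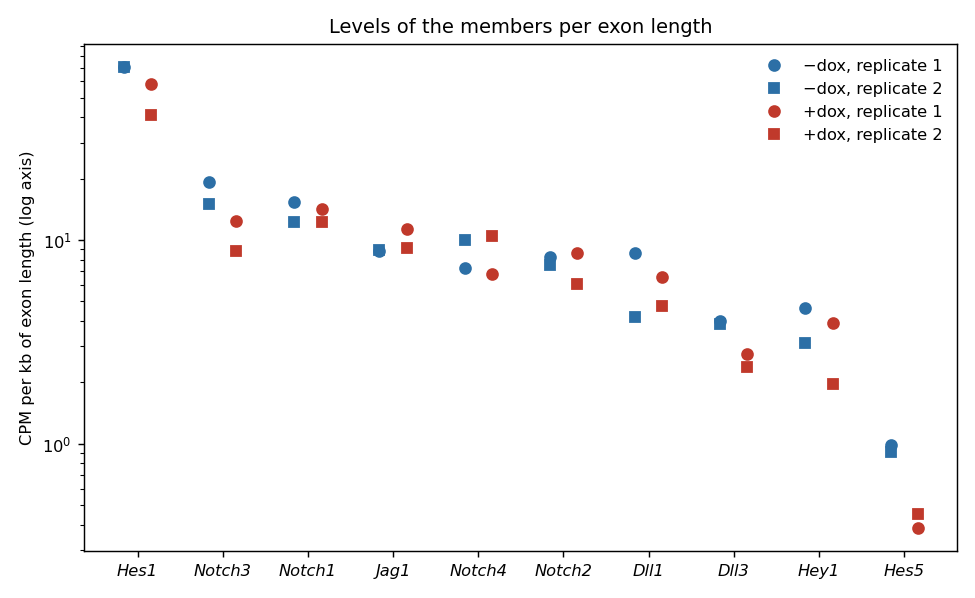
Level of each member per kilobase of exon (CPM per kb, log axis) in the 4 libraries, ordered by level, with −dox in blue, +dox in red, circles for replicate 1 and squares for replicate 2. Hes1 stands above the others and Hes5 below them in every library. Among the receptors and Jag1, neighbours in level overlap within each condition, except Notch1 and Jag1 without dox.

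The libraries of replicates 1 and 2 were counted in separate tables, and the ratio of +dox to −dox was also taken within each. Of the 10 members, 6 were lower with dox in both tables, Jag1 was higher in both, and Notch2, Notch4 and Dll1 had opposite signs in the tables. Of all 20044 genes tested, 6196 were lower in both tables and 6109 higher in both. Notch1 was among the 6 by little, with log2 ratios of −0.12 and −0.0016. The log2 ratios of Notch3 were −0.63 and −0.77, those of Dll3 −0.53 and −0.69, and those of Hes5 −1.22 and −0.93. Hes1 (−0.28 and −0.78) and Hey1 (−0.24 and −0.66) were lower by more in replicate 2. The median over the members was −0.26 in replicate 1 and −0.48 in replicate 2. These ratios compare single libraries and carry no test.

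Most members were also higher in replicate 1 than in replicate 2, by amounts that for some were slight. In each condition 8 of the 10 were so, and 7 were so in both. Of 13911 genes whose mean level reached 1 CPM, 47.7% were higher in replicate 1 with dox, 50.2% without and 26.8% in both. Without dox the log2 ratio of replicate 1 to replicate 2 was only 0.0016 for Hes1 and 0.055 for Dll3. Notch4 went the other way in both conditions (−0.63 with dox and −0.46 without). Hes5 did so with dox (−0.22) and Jag1 without (−0.019). +dox replicate 2 was below both −dox libraries for 7 of the 10 members (all but Notch4, Dll1 and Jag1), against 35.4% of all genes tested. For Notch1 this was by little, at 115.6 CPM against 115.7 CPM in −dox replicate 2.

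**Figure D5:**
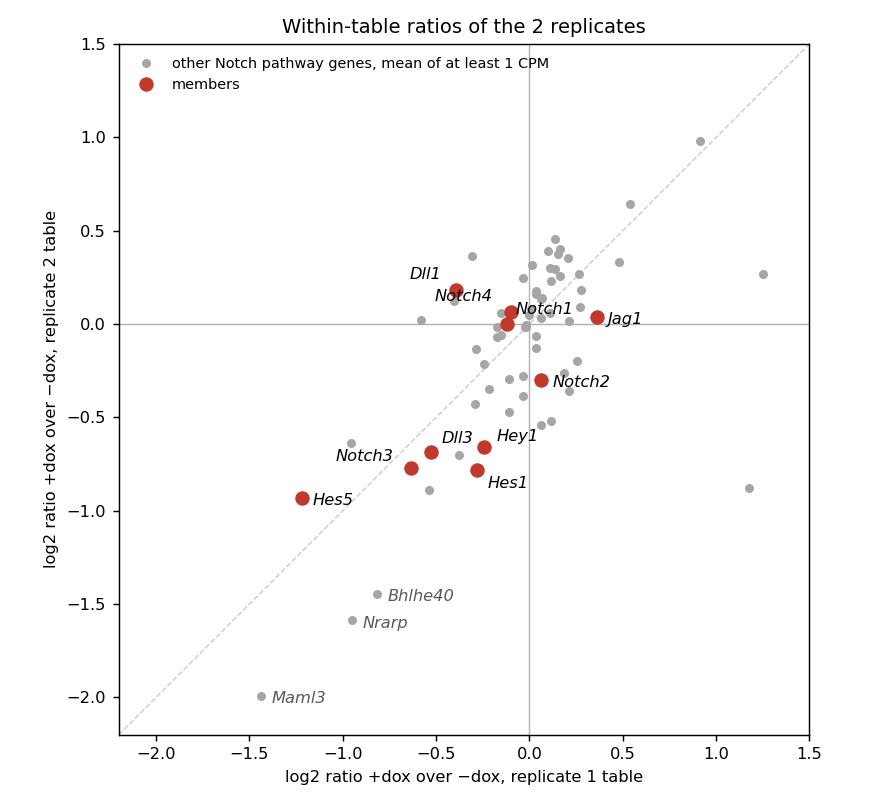
Log2 ratio of +dox to −dox CPM (prior count 2) in the replicate 1 table (x axis) and in the replicate 2 table (y axis) for the 10 members (red) and for the other Notch pathway genes whose mean reached 1 CPM (grey), with a dashed line of equal ratios. Notch3, Dll3, Hes1, Hes5 and Hey1 lie below 0 on both axes, Notch1 does so by little, and Bhlhe40, Nrarp and Maml3 lie further down.

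Beyond the members, 68 other genes of the pathway were read, from ligand-modifying and receptor-cutting enzymes to nuclear partners and further targets. As a whole they did not share the members' lower median: 32 had a log2 fold change below 0 and 36 above, with a median of 0.025. At an adjusted p under 0.01 in edgeR, 3 fell with dox and none rose, where 0.519% of all genes fell. At an unadjusted p under 0.05 there were 7 lower and 6 higher, where 9.31% of all genes were lower and 8.48% higher. DESeq2 called 4 lower and none higher, where it called 1.86% of the genes it tested lower. Without +dox replicate 1 edgeR called 5 of the 68, all lower, and without +dox replicate 2 it called 6, of which 3 were lower and 3 higher, in fits that called the larger shares of all genes given above. In 13 of the 68 the +dox libraries lay below both −dox libraries and in 19 above them, against 23.7% and 23.3% of all genes.

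The 3 that fell are a co-activator, a target gene and a repressor related to the Hes proteins. Maml3, a Mastermind protein of the nuclear activation complex, was at 4.80 and 3.77 CPM with dox and at 13.1 and 15.2 CPM without. That is a level 69.8% lower, with a log2 fold change of −1.73 ± 0.22 (edgeR adjusted p = 0.00179). Nrarp, a Notch target that limits the pathway by binding the activation complex, was at 7.28 and 5.52 CPM with dox and at 14.1 and 16.7 CPM without, a log2 fold change of −1.27 ± 0.21 (edgeR adjusted p = 0.00927). Bhlhe40, a basic helix-loop-helix repressor related to the Hes proteins that also responds to hypoxia, the clock and other signals, was at 91.5 and 62.8 CPM with dox and at 161 and 171 CPM without, a log2 fold change of −1.11 ± 0.15 (edgeR adjusted p = 0.00221). All 3 were separated between conditions by more than the spread of either. Their log2 fold changes were further below 0 than those of the members other than Hes5, whose value lay between those of Nrarp and Bhlhe40. Without −dox replicate 1 or without −dox replicate 2 edgeR called none of the 3 and no other gene, of 19619 and 19837 tested, with 1753 and 1450 genes at an unadjusted p under 0.05.

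No gene of the other parts of the machinery passed in edgeR. Rbpj, the DNA-binding partner of cleaved Notch, was at 115 and 113 CPM with dox and at 104 and 91.8 CPM without. Both +dox values were above both −dox values, with a log2 fold change of 0.21 ± 0.10 (edgeR adjusted p = 0.309), so that the direction was opposite to that of Maml3. The 10 genes of receptor cleavage had a median log2 fold change of 0.032, the 5 of receptor glycosylation −0.044 and the 13 co-repressors 0.099. Of the 9 genes that act on receptor turnover, Dtx3l, a ubiquitin ligase of the Deltex family, was at 16.4 and 14.5 CPM with dox and at 23.8 and 26.8 CPM without (edgeR adjusted p = 0.0362, DESeq2 adjusted p = 0.00807). Of the 4 ubiquitin ligases that act on ligands, Mib1, which a ligand needs for its uptake, was at 51.2 and 39.1 CPM with dox and at 66.5 and 63.7 CPM without (edgeR adjusted p = 0.0617). Both were lower in each +dox library than in either −dox library without an adjusted p under 0.01 in edgeR. Within the 9 further Hes and Hey family genes and targets, the direction was mixed, with 5 below 0 and 4 above and with Nrarp and Bhlhe40 the 2 that passed.

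Markers of other cell states differed between the same libraries. A list of 10 primitive streak genes, which mark the first mesoderm and endoderm and which ES cultures express at low level as some cells begin to differentiate, summed to 34.1 CPM in each +dox library and to 165 and 194 CPM in the −dox libraries. All 10 had a log2 fold change below 0, with a median of −2.58. Of them, 7 passed at 0.01, where 0.519% of all genes passed with a lower level. The list was chosen with earlier results of these data known, so these counts are a description. T, a defining gene of the streak, was at 5.73 and 7.18 CPM with dox and at 46.3 and 66.7 CPM without. The part of this difference in the lower level of Dll3, Notch3, Hes1 or Maml3 was not tested, and in bulk RNA fewer cells of a type and less RNA in each cell cannot be told apart. Mesp1, which stands in both the streak and the pathway lists, was at or below 0.884 CPM in every library. Of 8 neural markers, 7 had a log2 fold change above 0 and Pax6 passed (edgeR adjusted p = 0.0057), at 26.4 and 34.0 CPM with dox against 14.5 and 13.9 CPM without, whereas the neural target Hes5 had the lower value with dox. The proneural gene Neurog2 was at or below 0.12 CPM in every library.

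The 12 fibroblast markers all had a log2 fold change above 0, with a median of 1.36 over all 4 libraries, 1.80 in replicate 1 and 0.45 in replicate 2, and Lum was at or below 0.533 CPM in every library. None passed at 0.01 in edgeR or in DESeq2. At an unadjusted p under 0.05 in edgeR 9 were higher, where 8.48% of all genes were higher. At an adjusted p under 0.05 in edgeR 5 were higher, as were 186 of the 20044 genes tested. Notch2 and Jag1 had their highest value in the library with the most fibroblast signal. Notch3, Dll3 and Hes1 were lower in the other +dox library, whose fibroblast signal was nearer to that of the −dox libraries, than in this one. Hes5 (0.569 against 0.489 CPM) and Notch4 (68.9 against 44.6 CPM) were higher there. The part of the fibroblast signal in these values was not tested.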

How the data were processed

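RNA-seq counts of 4 libraries were analysed. Per the methods, the authors used cutadapt for trimming, TopHat2 for alignment to mm9 and HOMER to count unique, deduplicated reads on exons (versions not given in the sources used here), and the counts were deposited without normalization in 1 table for each replicate. The tables were joined by symbol, since 547 genes, Rbpj among them, have another transcript in the second. The test covered the 20044 genes that had at least 1 count in any library and was made with edgeR 4.0.16 (R 4.3.3; quasi-likelihood test, TMM, no block), two-sided, with Benjamini-Hochberg adjustment over all of them and a threshold of 0.01. Standard errors and 95% intervals come from the test statistic. CPM per kb divides by the deposited exon length. The fit was tested on simulated data. The test that the study used, DESeq2 1.42.0, was an alternative, beside a replicate block, other scalings, filters and thresholds, and leaving out each library. Named genes were the members, Dll4, Jag2, Rbpj, and pathway genes with an adjusted p under 0.01 in edgeR with or without the block or in DESeq2, with Ctcf added for the transgene. The members and lists were chosen with earlier results of these data known. ChIP-seq and Hi-C data were not analysed here.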

Additional observations from a re-analysis of the deposited data

How the results depend on the processing

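The count of members with an adjusted p under 0.01 was 0 in edgeR and stayed at 0 with adjusted deviances, other scalings or filters, or only the genes counted over 1 transcript in both tables. It was 1 with DESeq2, with DESeq2 and a replicate block, with edgeR's likelihood ratio test and at a threshold of 0.05, and from 0 to 3 when a library was left out. The 3 pathway genes called became 0 with adjusted deviances (3254 genes of all tested at an unadjusted p under 0.05) and 0 with filterByExpr (3225), and 2 with total counts or no filter, where Nrarp was lost (adjusted p = 0.0113 in each), although their log2 fold changes were −1.72 to −1.77 for Maml3, −1.27 to −1.31 for Nrarp and −1.10 to −1.15 for Bhlhe40 in these settings, and from 0 to 6 when a library was left out. Whether same-numbered libraries share a day or a batch is not stated in the labels. The deviations of these libraries from the group means correlated at 0.196 over 13911 genes. With the replicate as a block, 2 members (Notch3, adjusted p = 6.5e-05, and Hes1, 0.00462) and 5 pathway genes (Mib1 and Dtx3l added) were called by edgeR, as were 9 of the 12 fibroblast markers, all higher, and 786 of all genes against 120. All genes called were 375 with DESeq2, 457 with the likelihood ratio test, 0 with adjusted deviances, 11 with filterByExpr and from 0 to 992 when a library was left out. Notch4 turned positive with DESeq2 (0.0034), adjusted deviances (0.0012), DESeq2's size factors (0.0042) and filterByExpr (0.0013). Leaving out a library moved the log2 fold change from −0.22 to 0.11 for Notch1, −0.37 to 0.13 for Notch2, −0.35 to 0.28 for Notch4, −0.61 to 0.43 for Dll1, −0.99 to 0.0099 for Hey1, −0.43 to 1.41 for Dll4 and −0.046 to 0.021 for Jag2. Notch3, Dll3, Hes1, Hes5, Maml3, Nrarp and Bhlhe40 stayed below 0, and Jag1 and Rbpj above 0, in every alternative that gave a value. Where no value shows otherwise, the cause was not tested. The depth limits Hes5 and Dll4, with under 40 reads a library.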
